A study of Homo sapiens with 18 samples.

Results

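The genes described here were 9 direct targets of the transcription factor p53, *MDM2*, *BBC3*, *BAX*, *FAS*, *TP53INP1*, *ZMAT3*, *GDF15*, *RRM2B* and *PHLDA3*, chosen by symbol from a table that lists 21944 genes. All 9 were found, and all 9 were listed at each of the 3 time points, as were 85.1% of all genes. The study reseeded human embryonic stem cell-derived pancreatic progenitors at day 19 of differentiation on fibronectin (FN) or on laminin-411 (LN411), an isoform of laminin to which cells adhere weakly. Cells were harvested 3, 6 or 24 h later, with 3 samples for each of the 6 groups (FN 3 h, FN 6 h, FN 24 h, LN411 3 h, LN411 6 h and LN411 24 h) and 18 samples in all. All groups were detached with accutase, replated on coated wells and carried no other stated treatment. The growth protocol and the paper give the cells as NGN3-GFP, a reporter line derived from SA121, while the cell line field of the labels names HUES4. The value analysed was the authors' mean normalized count, the read count of a gene after scaling for library size, averaged over all samples. It joins both matrices and all 3 times. The difference between LN411 and FN was not analysed here, because the table gives it only through the authors' own fold changes and p-values, which were not used. The levels below therefore carry no error, no depth per sample and no test.

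p53 is kept at a low level in unstressed cells by MDM2, a ubiquitin ligase that marks it for degradation and that is itself a p53 target, so that the pair forms a feedback loop. After DNA damage and other stress, p53 accumulates, binds its sites in DNA and raises genes for cell cycle arrest, DNA repair, metabolism and cell death. The form of its site used here is a tandem of adjacent decamers. Each has 3 purines, a C, a pair of A or T bases, a G and 3 pyrimidines. Decamers with other bases between them were not searched for.

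To place the members beside the sequence through which p53 acts, the genome was searched for the p53 full site, 20 bases made of adjacent decamers of 10 bases, from 1000 bases before to 3000 bases after the start of each gene's canonical transcript. The pattern is its own reverse complement, so that a single pass covers both strands. Up to 2 mismatches were allowed outside the 4 core C and G bases. A match was found in 6 of the 9 members, against 2.96% of the 15355 protein-coding genes listed. Because the members were chosen as known p53 targets, setting these shares side by side is a description and not a test. The 6 were *ZMAT3*, *RRM2B*, *MDM2*, *FAS*, *GDF15* and *BAX*, each with a single match. The sites of 5 of them are shown on GRCh38, read on the strand of the gene, so that they can be compared base by base. Capitals mark the core C and G of each decamer.
ZMAT3 (chr3:179070188-179070207, minus strand): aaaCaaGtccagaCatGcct
MDM2 (chr12:68808923-68808942, plus strand): ggtCaaGttcagaCacGttc
FAS (chr10:88991309-88991328, plus strand): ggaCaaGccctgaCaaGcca
GDF15 (chr19:18385308-18385327, plus strand): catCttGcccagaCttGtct
BAX (chr19:48955213-48955232, plus strand): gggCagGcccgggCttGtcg

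The site of *ZMAT3*, which encodes a zinc finger RNA-binding protein, matched at all 20 bases and lies 1602 bases after the start, in an intron. Only 7 of the 15355 genes, or 0.0456%, held such a complete match in this window. The sites of *MDM2*, *FAS*, *GDF15* and *BAX* each had 2 mismatches. In *MDM2* the site lies in an intron 746 bases after the start, and in *FAS* 511 bases after the start in an intron of the canonical transcript that other annotated transcripts cover with an exon. The *BAX* site, 338 bases after the start, also lies in an intron of the canonical transcript and in an exon of another. The *GDF15* site lies 850 bases upstream of the canonical start and within an intron of a longer annotated transcript. In *RRM2B* the site had 1 mismatch and lies in an intron 2102 bases after the start. No match of this kind was found in the window of *BBC3*, *PHLDA3* or *TP53INP1*, which says only that these letters are not there. Within the narrower stretch from 250 bases before to 50 bases after the start, none of the 9 members held a match, against 0.208% of genes. A match is a description of the sequence, and binding by p53 was not measured.

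**Figure D1:**
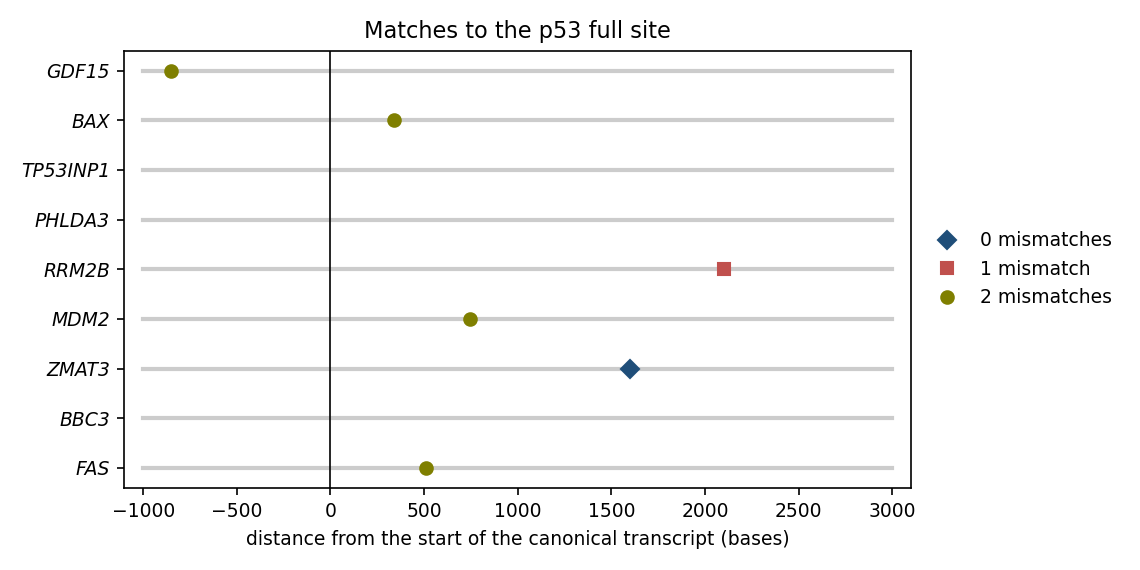
Positions of matches to the p53 full site in the 9 members, in bases from the start of the canonical transcript, with the vertical line at the start and the grey bars showing the searched window. Symbols give the number of mismatches. The 6 matches lie between 850 bases before the start (*GDF15*) and 2102 bases after it (*RRM2B*), and *BBC3*, *PHLDA3* and *TP53INP1* have none.

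The RNA levels of the members differed widely in these cultures. The authors' mean normalized count was 9713 for *GDF15*, 7208 for *BAX*, 7204 for *MDM2*, 6360 for *ZMAT3*, 6225 for *TP53INP1*, 4760 for *RRM2B*, 2864 for *PHLDA3*, 767 for *BBC3* and 324 for *FAS*. The median of the 9 was 6225, against 297 over all listed genes, and 7 of the 9 exceeded at least 80% of all genes. *BBC3*, with 60.0% of genes lower, and *FAS*, with 50.7%, were lowest. Among protein-coding genes alone, 6 of the 9 exceeded at least 80%, with *PHLDA3* at 72.3%, *BBC3* at 43.6% and *FAS* at 31.7%. Together the 9 genes took 0.0854% of all normalized counts. Since these are bulk samples, fewer cells that transcribe a gene and less RNA per cell cannot be told apart.

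Longer transcripts give more reads, so the members' levels were next divided by length, with all exons annotated for a gene in GENCODE v44 merged. On this scale the median of the members was 883 normalized counts per kilobase, against 76.2 over the 21861 genes with a length and 194 over the protein-coding genes. *GDF15* was highest at 4654 per kilobase and exceeded 98.5% of genes, followed by *BAX* at 2786 per kilobase and 97.0%. Then came a cluster of 4 genes, *TP53INP1* at 1103, *PHLDA3* at 883.3, *RRM2B* at 882.9 and *MDM2* at 867 per kilobase. Without values per sample, no order can be given within this cluster. *ZMAT3* stood at 563, *BBC3* at 241 and *FAS* at 11.1 per kilobase. The order of *GDF15* and *BAX* depended on the length used. Per kilobase of the canonical transcript, the single transcript that the annotation takes as the reference for a gene, *BAX* had 9067 and *GDF15* 8094.

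**Figure D2:**
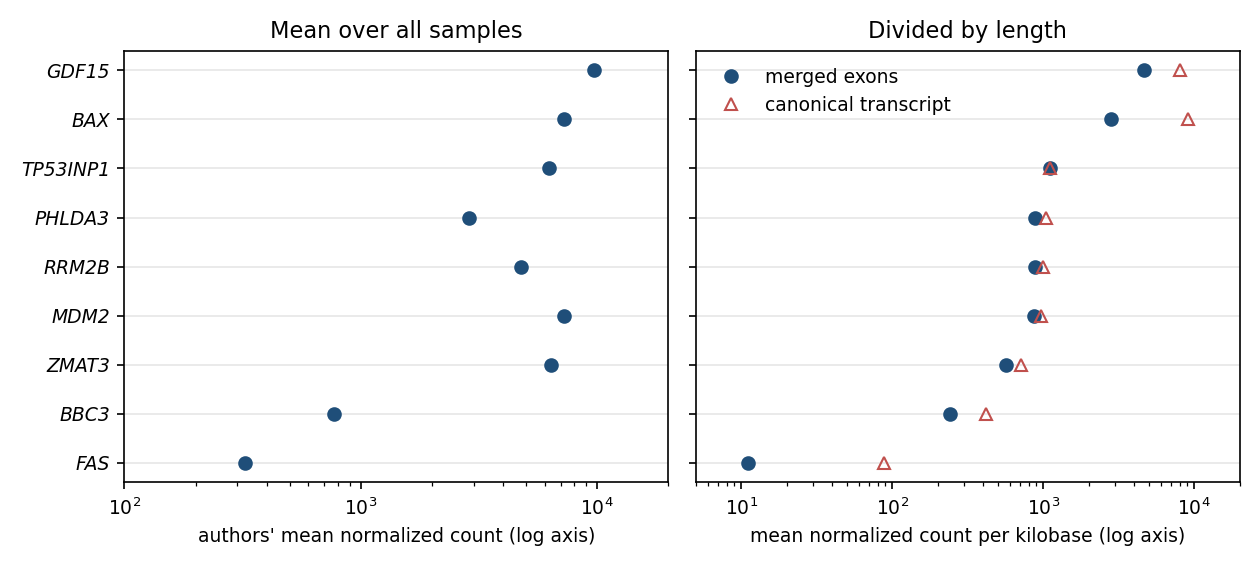
Left, the authors' mean normalized count of the 9 members over all samples. Right, the same value per kilobase of merged exons (filled circles) and of the canonical transcript (open triangles). Both axes are logarithmic and no error is known. *GDF15* and *BAX* are highest per kilobase on either length, and *FAS*, at 11.1 or 87.7, is lowest on both.

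*MDM2* and *PHLDA3* encode inhibitors of p53 and of AKT signalling, and both belong to the cluster of 4 genes named above. *MDM2* (ENSG00000135679, chromosome 12 of GRCh38, 68808177 to 68845544) had 11 exons in its canonical transcript and 867 normalized counts per kilobase. Its relative *MDM4*, which binds p53 and limits its activity, had 156 per kilobase, so that *MDM2* was 5.56 times higher. *PPM1D*, a phosphatase that is a p53 target and switches the pathway off, had 205 per kilobase, and *MDM2* was 4.24 times higher, or 2.38 times per kilobase of the canonical transcript. Both were chosen for this comparison after their values were seen. Of the exon bases of *MDM2*, 14.7% are shared with exons of other annotated genes. These are a processed pseudogene on the same strand (439 bases), a long non-coding RNA on the opposite strand (785 bases) and *CPM* on the opposite strand (133 bases). *PHLDA3* (ENSG00000174307, chromosome 1, 201464278 to 201469237) encodes a pleckstrin homology domain protein that restrains AKT signalling. It had 883.3 normalized counts per kilobase, and 598 of its 3243 exon bases, or 18.4%, are shared with a long non-coding RNA on the same strand.

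The members of the mitochondrial and receptor arms of cell death were unequal in level. *BAX* (ENSG00000087088, chromosome 19, 48954815 to 48961798) encodes the protein that permeabilizes the outer mitochondrial membrane and had 2786 normalized counts per kilobase. *BBC3* (ENSG00000105327, chromosome 19, 47220822 to 47232766) encodes PUMA, a BH3-only protein that sets BAX free to act, and had 241 per kilobase. *BAX* was thus 11.6 times above *BBC3* per kilobase of merged exons and 21.8 times per kilobase of the canonical transcript. *PMAIP1*, which encodes the BH3-only protein NOXA, had 946 per kilobase, 3.93 times above *BBC3*, or 2.62 times per kilobase of the canonical transcript. *FAS* (ENSG00000026103, chromosome 10, 88953813 to 89029605) encodes a death receptor of the tumour necrosis factor receptor family and was the lowest of the 9. A second death receptor gene under p53, *TNFRSF10B*, had 3832 per kilobase. *PMAIP1* and *TNFRSF10B* were chosen for these comparisons after their values were seen. The ratio of *TNFRSF10B* to *FAS* was 346 per kilobase of merged exons and 54.7 per kilobase of the canonical transcript.

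The level of *FAS* per kilobase depended strongly on its annotated length. GENCODE v44 gives *FAS* 61 transcripts whose merged exons cover 29313 bases, against 3696 bases for the canonical transcript with its 9 exons. Its level was accordingly 11.1 normalized counts per kilobase on the former and 87.7 on the latter, with 22.1% and 46.8% of genes lower. It was the lowest of the 9 members with both lengths. Reads were counted by the authors on an earlier GENCODE release, so an exon annotated only since then adds length here without reads. The size of this effect on *FAS* was not tested. Exons of other genes share 2065 of the *FAS* exon bases, among them 387 bases of *ACTA2* and 1899 of a long non-coding RNA on the opposite strand and 166 of *STAMBPL1* on the same strand. The paper names the library kit as NEBNext Ultra II RNA, without the word directional, and does not state whether counting used the strand. The effect of these overlaps on the count was not tested.

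The remaining members act in stress signalling, RNA regulation and nucleotide supply. *GDF15* (ENSG00000130513, chromosome 19, 18374731 to 18389176) encodes a secreted stress cytokine of the TGF-beta superfamily and was highest both in normalized counts and per kilobase of merged exons. It lies on the same chromosome as *BAX* and *BBC3*, and none of its 2087 exon bases is shared with another annotated gene. *ZMAT3* (ENSG00000172667, chromosome 3, 178960121 to 179072215) had 6360 normalized counts over merged exons of 11298 bases. *TP53INP1* was 1.96 times higher per kilobase of merged exons and 1.56 times per kilobase of the canonical transcript. Without division by length, *TP53INP1* was slightly lower than *ZMAT3*, at a ratio of 0.979. *TP53INP1* (ENSG00000164938, chromosome 8, 94925972 to 94949378) encodes a protein that promotes p53-dependent cell death and autophagy. It shares 225 of its 5643 exon bases with *NDUFAF6* on the opposite strand. *RRM2B* (ENSG00000048392, chromosome 8, 102204502 to 102238961) encodes the p53-inducible small subunit of ribonucleotide reductase, which supplies deoxynucleotides for DNA repair. It had 882.9 normalized counts per kilobase, with no exon base shared with another gene. In all, 4 of the 9 members shared no exon base and 5 shared some, against 48.1% of all genes that share some.

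The members were then set beside 31 other targets and regulators of p53. All 31 were listed, with a median of 427 normalized counts per kilobase, and 28 of them lay above the middle of all genes, or 26 per kilobase of the canonical transcript. Against the median of protein-coding genes, 194 per kilobase of merged exons, 22 of the 31 were higher. Their highest levels per kilobase of merged exons were those of *BTG2* (5082), an antiproliferative gene, and *CCNG1* (4993), which encodes cyclin G1. *PERP* (4278), an effector of cell death and adhesion, came next. With merged exons these lay in the range of *GDF15* at 4654. Per kilobase of the canonical transcript, *CCNG1* was highest of the 31 at 6326, below *GDF15* at 8094 and *BAX* at 9067. On that length *BTG2* had 5134 and *PERP* 4278, and neither was among the 3 highest. The lowest with merged exons were *TP53AIP1* at 2.87, *TRIM22* at 6.93 and *SFN* at 16.2 per kilobase. *SFN* was above *FAS* with merged exons (11.1) and below it with the canonical transcript, with 16.2 against 87.7. By class, the median was 1915 per kilobase for 8 genes of the cell cycle and stress, 725 for 9 genes of cell death, 356 for 6 genes of DNA repair and metabolism, 180 for the other 2 regulators and 382 for 6 further targets. Of the 31 genes, 9 held a p53 full site with up to 2 mismatches in the searched window. The members had 6 of 9, and the 15355 protein-coding genes 2.96%. The 31 were also chosen as known p53 genes, so this too is a description and not a test. The 9 of the 31 were *AEN*, *CCNG1*, *DDB2*, *DRAM1*, *EDA2R*, *GADD45A*, *PMAIP1*, *SPATA18* and *TNFRSF10B*.

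**Figure D3:**
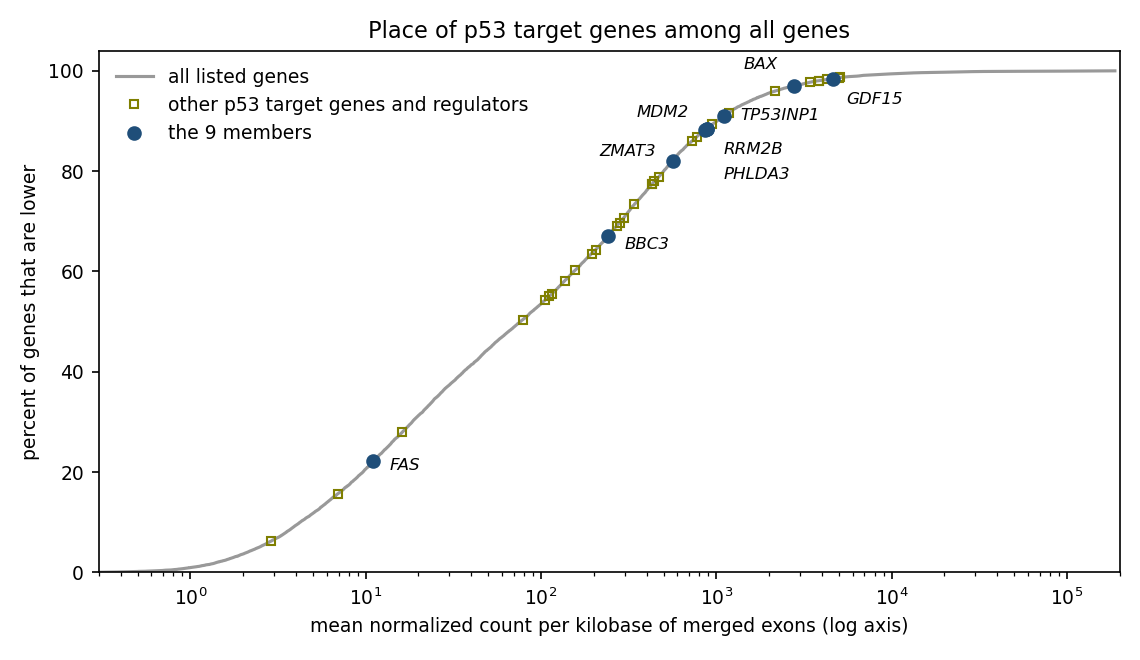
Share of all listed genes with a lower level (vertical axis, percent) against the mean normalized count per kilobase of merged exons (horizontal axis, logarithmic). The grey line is all 21861 genes with a length, filled circles are the 9 members and open squares the 31 other p53 target genes and regulators. Of the members, 7 exceed at least 80% of genes, *BBC3* exceeds 67.1% and *FAS* 22.1%. Per kilobase of the canonical transcript, not drawn here, 6 exceed at least 80%, with *ZMAT3* at 77.9%.

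The labelled cell type was checked against its markers on the same pooled mean. Of 8 pancreatic progenitor genes, 7 lay above the middle of all genes per kilobase, with *SOX9* highest at 5259, while *PTF1A* was lowest at 7.64. Above the same middle lay 3 of 5 endocrine genes, 2 of 4 mesenchymal genes and 0 of 3 endothelial genes. Endocrine genes ranged from *CHGA* at 1426 to *NEUROD1* at 8.67, mesenchymal genes from *COL1A1* at 454 to *PDGFRB* at 15.9 and endothelial genes from *PECAM1* at 9.69 to *CDH5* at 0.851. The pluripotency gene *DPPA4* had 75.4 per kilobase, near the middle of all genes. It had 49.8% of genes lower with merged exons and 51.9% with the canonical transcript. The pluripotency genes *NANOG* and *POU5F1* and the blood gene *PTPRC* were not among the listed genes, so no level is known for them. *COL1A1* was thus within the range of the members, between *BBC3* and *ZMAT3*. The part of cells other than progenitors in the members' levels was not tested.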

How the data were processed

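RNA was sequenced from 18 samples in 6 groups of 3. Per the paper's methods and the labels, the authors demultiplexed reads, aligned them with STAR 2.7.2d to GRCh38 with GENCODE annotation, obtained gene counts from STAR and normalized the counts with DESeq2 1.34.0. The value used is a signal the authors deposited, the mean normalized count over all samples, with no division by length. Its largest relative gap between the 3 times was 4.89e-07. The other 5 measurement columns hold the authors' comparisons of LN411 with FN (fold change, its error, test statistic, p-value and adjusted p-value) and were not used. The table had 0 columns of values per sample, so the count model planned for LN411 against FN, its alternatives and any interval could not be run. The means summed to 53217583 over all genes, and the depth of single libraries is unknown.

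Levels were divided by merged exon length in GENCODE v44 on GRCh38, matched by Ensembl identifier for 99.6% of genes. This is the authors' assembly with a later annotation than the release they counted on, so exons added since then enter the length only. A gene's place is the percent of listed genes with a lower value. Sites were read from the GRCh38 genome. The site search was tested only on simulated sequences of T bases, each with a planted site. Every planted site was read with its number of mismatches, but such sequences cannot show false matches. The rule for named genes gave the 9 members, the 3 highest and 3 lowest of the other p53 genes per kilobase, and the highest and lowest marker of each class. Outside this rule, *MDM4*, *PPM1D*, *PMAIP1* and *TNFRSF10B* were chosen after their values were seen, and the other p53 genes with a site are all listed. The result of 1 progenitor marker is not reported here. Members and lists were chosen with earlier results of these data known, and the site search was added after the files were seen. Scripts ran in Python 3.11.15 with pandas 2.3.3, numpy 2.4.6 and matplotlib 3.10.9.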

Additional observations from a re-analysis of the deposited data

How the results depend on the processing

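The median share of genes below the members was 91.5% over all listed genes, 90.3% among genes whose mean was 10 normalized counts or more, 87.9% among protein-coding genes and 89.97% among genes listed at all 3 times. The share below a single member moved by at most 19.0 percentage points among these sets. The median level of the members was 883 per kilobase of merged exons, 997 with the longest transcript, 997 with the canonical transcript, 1017 with exon bases that no other gene shares (chosen after seeing the data) and 6225 without division by length. Of 36 pairs of members, 0 changed order with the longest transcript, 1 with the canonical transcript, 1 without shared bases and 7 without division by length. The median of the other p53 genes was 427 per kilobase of merged exons and 549 with the longest transcript. The number of members with a p53 full site fell from 6 to 2 with 1 mismatch allowed and to 1 with none allowed. It was 0 in the stretch from 250 bases before to 50 bases after the start. The share of the 15355 protein-coding genes with such a site was 2.96%, then 0.365%, 0.0456% and 0.208% in the same order. All these settings were chosen after seeing the data. No paired analysis was possible because the table used gives no values per sample. For the same reason, the planned tests of LN411 against FN with other normalizations and filters, and those leaving out samples, were not run. How far annotated length and shared reads set these levels was not tested.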
